A study of Calluna vulgaris with 2 samples.

Results

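Osmotin-like, PR-10, MLP-like and defensin contigs are the part of the heather flower transcriptome described here. They are 6 of the 12058 backbone contigs with read numbers: the osmotin-like contig00322, contig00324 and contig00325, the PR-10 type contig00207, the MLP-like contig03302 and the defensin contig05824. The members were chosen by contig number from the paper's list of contigs that differed between these libraries. Their difference between the libraries is therefore given as a description, without a test.

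The study compared young flowers of the bud bloomer (bud), the cultivar ‘Maria’ of *Calluna vulgaris* (common heather), with those of the wild type (wt), genotype F1, an offspring of ‘Maria’ and ‘Boskoop’. Bud flowers stay closed, lack stamens and form sepals in place of petals, whereas wt flowers open and carry petals and stamens. Each flower type gave 1 cDNA library of 3’ fragments, and a read number is the number of pyrosequencing reads that mapped to a contig. Neither the number of plants behind a library nor their harvest dates are given in the sources used here, and flower type and genotype cannot be told apart, since each type is 1 genotype.

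All 4 protein types belong to the defence proteins of plants. Osmotin, first described in tobacco cells adapted to salt, is a thaumatin-like protein of the PR-5 family that is induced by osmotic stress and by fungi. PR-10 type proteins and major latex proteins (MLP) are small proteins of the same superfamily, named after the birch pollen allergen Bet v 1, with a cavity that binds hydrophobic ligands. Plant defensins are small secreted peptides rich in cysteine, many of which inhibit the growth of fungi. PR stands for pathogenesis-related, and several PR families are also known from flowers of healthy plants.

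The counts summed to 193454 reads for bud and 157245 reads for wt. Both sums exceed the assembled reads that the paper gives for the separate assembly of that library. Whether reads were counted on several contigs was not tested, and the intervals of summed contigs treat each read as counted once. Read shares are expressed per 10000 reads with exact 95% intervals, and a ratio is the bud share over the wt share. These intervals cover counting error only: PCR copies of one cDNA molecule count as separate reads, and no second library shows how plants vary. A count of 0 was replaced by a floor of 3 reads, which is 0.155 per 10000 in bud and 0.191 per 10000 in wt. Contig lengths are not in the table, so shares of different contigs are not compared as expression levels.

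The deposited table calls its columns library 1 and library 2. The first was read as bud, since 9 of 9 contigs that the paper lists with reads for each flower type stand in this order and 0 in the opposite order. No member is among those 9. The paper's longer list, from which the annotations came, heads library 1 as wt, and in that reading every direction given here is reversed. The reads printed there matched the deposited ones for 2 of its 195 annotated contigs and for 0 of the 6 members. It therefore served for contig numbers and annotations alone. That list runs through the contig numbers in 2 blocks. In the deposited counts, 109 of 114 contigs of the first block had the higher share in bud and 80 of 81 contigs of the second block the higher share in wt. contig00207, contig00324 and contig03302 stand in the first block and were higher in bud, and contig00322, contig00325 and contig05824 stand in the second and were higher in wt. Both the block and the deposited reads go by contig number, so this does not bear on the annotations. The link between annotation and contig number was not checked for the members.

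Floral markers were read in the same libraries to check the labelled flower types. The B class gene *CvPI* (contig07420), a determinant of petals and stamens, had 0 bud reads against 20 wt reads, and *CvAP3* (contig09453), its partner, had 15 in bud against 21 in wt. The *CvPI* reads went with the lack of petals and stamens in bud flowers, but this contig is among the 9 by which the columns were assigned. A pollen-specific protein c13-like contig (contig01586) had 67 bud reads against 0 wt reads, and a TAP1 precursor-like contig (contig03435), named after a tapetum protein, had 381 in bud against 140 in wt. By their annotations alone, the pollen and tapetum contigs therefore went against the absence of stamens in bud flowers. An E2FE-like transcription factor contig, for which the paper lists cell proliferation and pollen meiosis as functions, went the other way, with more reads in wt. The contigs numbered just before contig01586 had reads of both libraries: contig01584 had 158 in bud against 98 in wt, and contig01585 had 107 in bud against 104 in wt. How reads were divided among contig01586 and these contigs was not tested. The organ makeup of the flowers differs by design, and its part in the reads of the osmotin-like, PR-10 type, MLP-like and defensin contigs was not tested. In whole flowers, fewer cells that express a gene and less of its RNA per cell cannot be told apart.

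Of the 6 contigs, 2 were at least 2-fold higher in bud, 3 were at least 2-fold higher in wt, and 1 lay between. Among the 11900 contigs with more than 2 reads, 21.0% were at least 2-fold higher in bud and 22.3% at least 2-fold higher in wt. Among the 2426 contigs with at least 30 reads these shares were 18.9% and 12.0%. Nothing is read from the members' counts, as they were listed for this difference. Summed over the 6 contigs, bud had 1565 reads (80.9 per 10000) and wt had 1269 reads (80.7 per 10000), and the 95% interval of the ratio, 0.930 to 1.08, included equal shares. This depended on the library totals: the ratio was 0.906 (0.841 to 0.976) with the assembled reads and 0.805 (0.747 to 0.867) with the reads in contigs of the separate assemblies, where both intervals lay under equal shares. The sum joined opposite parts: the PR-10 type and MLP-like contigs had the larger shares in bud, and the osmotin-like sum and the defensin had the larger shares in wt. The MLP-like contig alone held 64.0% of the 6 contigs' reads in bud and 35.1% in wt.

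**Figure D1:**
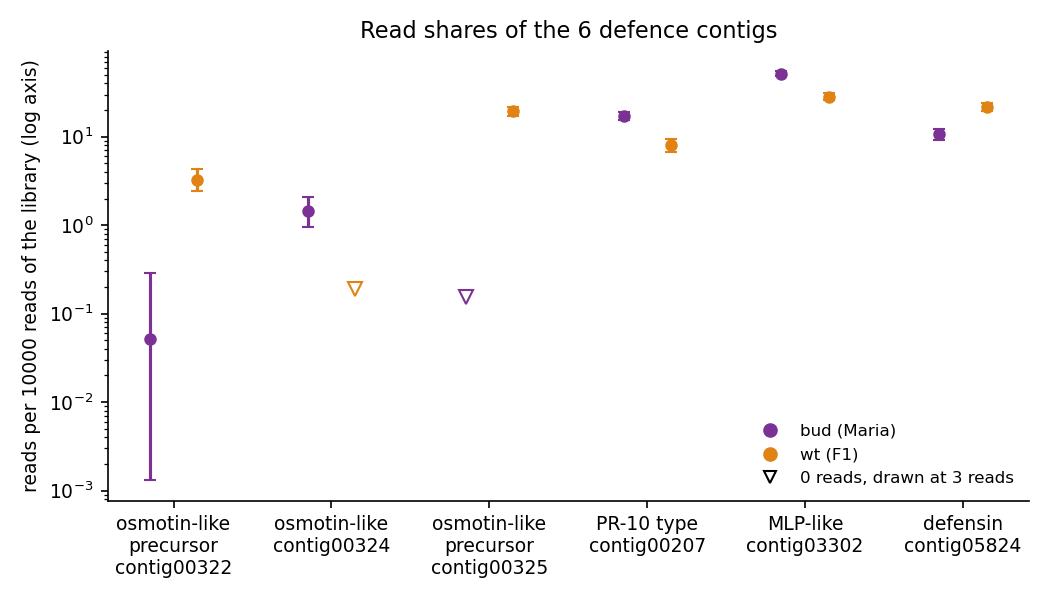
Read shares of the 6 contigs, as reads per 10000 reads of the library on a log axis, with exact 95% counting intervals for bud and wt (1 library each). Open triangles stand for 0 reads and are drawn at the floor of 3 reads. The MLP-like contig03302 lies at 51.7 in bud and 28.3 in wt, and the osmotin-like precursor contig00325 at the floor in bud and at 19.5 in wt.

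Among the 6 contigs, the largest differences belonged to the osmotin-like contigs. contig00325, annotated as an osmotin-like protein precursor, had 0 bud reads against 306 wt reads, where its share was 19.5 per 10000 (17.3 to 21.8). It was at least 125.5-fold lower in bud against the floor of 3 reads, while the exact interval puts it at least 101-fold lower. contig00322, a second osmotin-like precursor, had 1 bud read against 51 wt reads. The ratio of 0.0159 had a wide counting interval, 0.000396 to 0.0929. Nearly all reads of both precursor contigs thus came from the wt library. The third, contig00324, went the other way: it had 28 reads in bud (1.45 per 10000, 0.962 to 2.09) against 0 wt reads. It was at least 7.59-fold higher in bud at the floor, or at least 5.77-fold higher when the exact interval is used.

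Summed, the 3 osmotin-like contigs had 29 bud reads against 357 wt reads, which is 1.50 per 10000 in bud and 22.7 in wt and a ratio of 0.0660 (0.0436 to 0.0965). This is 15.1-fold lower in bud. The makeup of the sum differed as well. In bud, contig00324 held 96.6% of the osmotin-like reads (82.2 to 99.9%, exact Clopper-Pearson interval), whereas in wt contig00325 held 85.7% (81.6 to 89.2%) and contig00322 held 14.3% (10.8 to 18.4%). The osmotin-like reads of bud therefore lay on another contig than those of wt.

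The 3 osmotin-like contigs have nearly consecutive numbers, and contig00323 between them has no annotation in the list. It had 127 bud reads against 462 wt reads, more than the annotated contigs together in each library, and a ratio of 0.223 (0.182 to 0.272). Its difference had the same direction as that of the osmotin-like sum but was smaller, and the counting intervals of the 2 ratios did not overlap. With contig00323 added, the run of 4 contigs had 156 bud reads against 819 wt reads, a ratio of 0.155 (0.130 to 0.184), or 6.46-fold lower in bud in place of 15.1-fold. Whether contig00323 is an osmotin-like sequence is not given in the sources used here. contig00323 then held 81.4% of the run's reads in bud and 56.4% in wt.

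**Figure D2:**
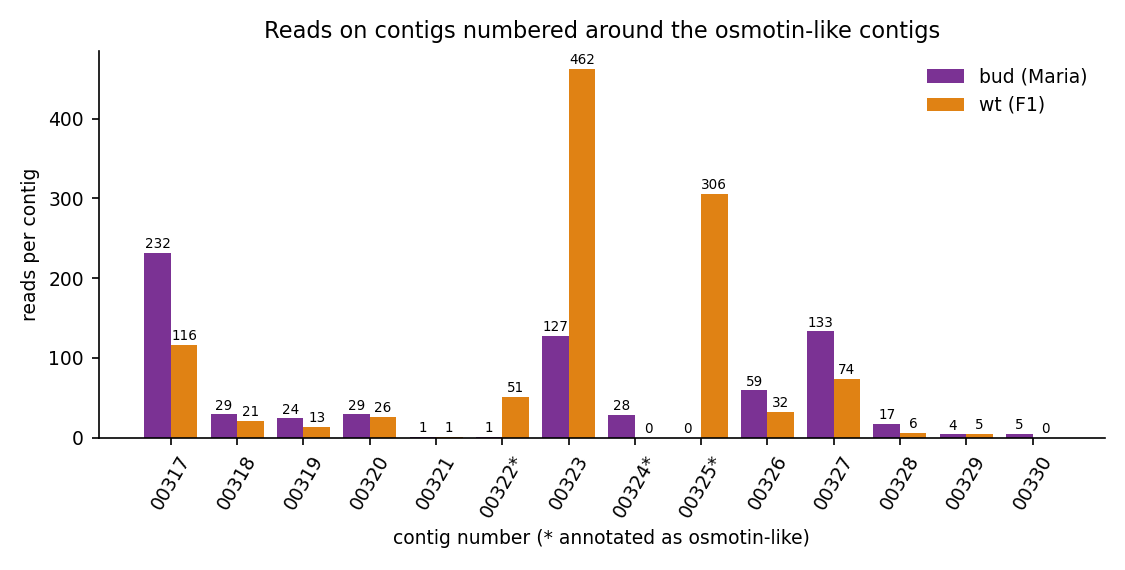
Reads per contig in bud and wt for the contigs numbered within 5 of the osmotin-like contigs, which are marked with an asterisk; each bar is 1 library and starts at 0. contig00322, contig00323 and contig00325 have more reads in wt, while contig00324 has 28 bud reads against 0 wt reads.

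Around this run the read numbers looked different. The 11 other contigs numbered within 5 of an osmotin-like contig included contig00323, and 8 of the 11 had at least 10 reads. contig00317 had 232 bud reads against 116 wt reads, contig00327 had 133 in bud against 74 in wt, and contig00326 had 59 in bud against 32 in wt. The shallower contig00318 (29 bud reads against 21 wt reads), contig00319 (24 bud, 13 wt), contig00320 (29 bud, 26 wt) and contig00328 (17 bud, 6 wt) had ratios between 0.907 and 2.30. Among the neighbours with at least 10 reads, contig00323 had the lowest ratio, 0.223, a smaller difference than those of the precursor contigs. The lowest ratio among the other such neighbours was 0.907, for contig00320.

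Contigs found in 1 library only were not spread evenly over the contig numbers. Among contigs with at least 20 reads, 100 of 850 (11.8%) numbered up to 2000 had reads from 1 library only, against 40 of 3097 (1.29%) numbered above 2000. The osmotin-like contigs and the PR-10 type contig lie in the first range, the MLP-like contig and the defensin in the second. Pairs of consecutive contigs with at least 20 reads each numbered 2048, and in 3 of them one contig was found only in bud and the other only in wt. One of these 3 is contig00324 with contig00325. The others are contig01012 (188 reads in bud, 0 in wt) with contig01013 (0 bud, 101 wt), without annotation, and contig01726 (77 bud, 0 wt) with contig01727 (0 bud, 31 wt), both annotated as 60S ribosomal protein L21. In the annotated list ordered by contig number, 10 pairs of successive contigs carry the same annotation and lie within 3 numbers of each other. Words such as like or precursor were left out of account. In 10 of the 10 the contigs differed in direction, among them contig00322 with contig00324 and contig00324 with contig00325. Only successive contigs were paired, which leaves out contig00322 with contig00325, both precursor contigs and both higher in wt. The list holds contigs that the study found to differ, so such pairs were selected for differences, and these searches were made after the values had been seen. How reads were divided among like contigs during assembly and mapping was not tested.

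**Figure D3:**
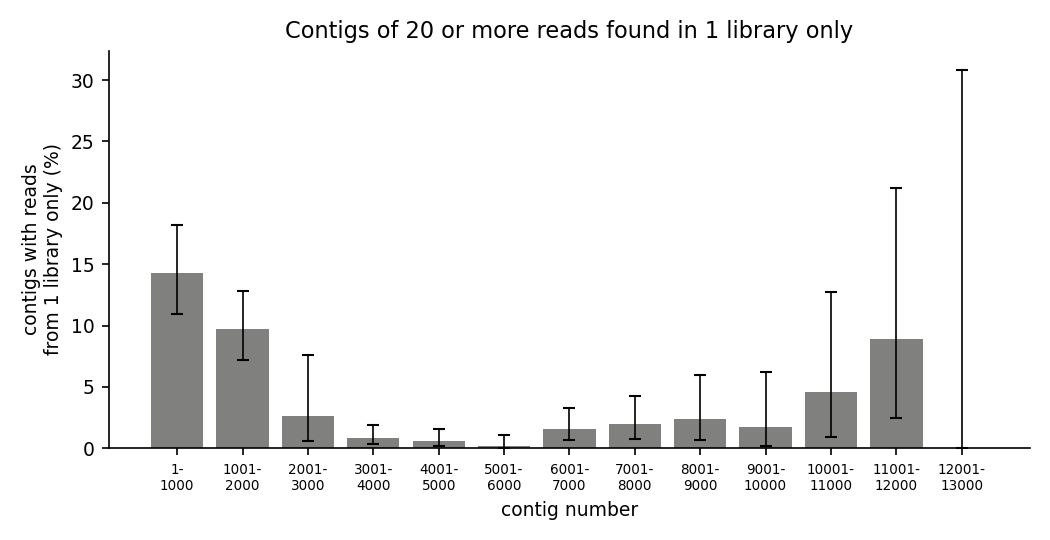
Share of contigs with reads from 1 library only, among contigs with at least 20 reads, by blocks of 1000 contig numbers, with exact 95% binomial intervals. The first block, which holds the osmotin-like and PR-10 type contigs, stands at 14.3% and the second at 9.75%, while the block of the MLP-like contig03302 stands at 0.866%.

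The members of the Bet v 1 superfamily had higher shares in bud. The PR-10 type contig00207 had 330 bud reads against 126 wt reads, which is 17.1 per 10000 (15.3 to 19.0) in bud and 8.01 per 10000 (6.68 to 9.54) in wt. The ratio was 2.13 (1.73 to 2.64), but it was 1.92 with the assembled reads and 1.71 with the reads in contigs of the separate assemblies as library totals, both under 2-fold. The MLP-like contig03302 had the most reads of the 6 contigs, 1001 in bud and 445 in wt. Its shares were 51.7 (48.6 to 55.0) in bud and 28.3 (25.7 to 31.1) in wt, a ratio of 1.83 (1.63 to 2.05) that lay under 2-fold. The counting intervals of the PR-10 type and the MLP-like contig overlapped, and whether their ratios differed was not tested. Together they had 1331 bud reads against 571 wt reads, a ratio of 1.89 (1.72 to 2.09).

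Both contigs had more than 100 reads in each library. Their neighbours by number were shallower. Within 5 numbers of contig00207 the highest read number over both libraries was 97, for contig00212 with 38 bud reads against 59 wt reads. contig00209 had 52 bud reads against 27 wt reads, contig00208 had 14 in bud against 18 in wt, and contig00203 and contig00204 had 18 and 10 reads over both libraries. contig00211, without annotation, had 0 bud reads against 36 wt reads. It was at least 14.8-fold lower in bud at the floor, or at least 11.4-fold lower when the exact interval is used. Summed after these values were seen, contig00207 and contig00211 had 330 bud reads against 162 wt reads, a ratio of 1.66 (1.37 to 2.01).

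Near the MLP-like contig03302, 9 of 10 neighbours had at least 10 reads, with ratios from 0.692 to 2.95 and a median of 1.48. The contig nearest to it in ratio among the annotated contigs outside the defence list was its neighbour contig03298, a 40S ribosomal protein S4, with 275 bud reads against 122 wt reads and a ratio of 1.83. The next was caffeic acid 3-O-methyltransferase 1 (contig00526), an enzyme of lignin synthesis, with 267 bud reads against 121 wt reads. For the PR-10 type contig00207, the 40S ribosomal protein S25 (contig03979, 129 bud reads against 49 wt reads) and the 60S ribosomal protein L35a (contig03221, 233 bud reads against 88 wt reads) were nearest, with ratios of 2.14 and 2.15. Nearness is the difference of the log2 ratios over the 2 libraries, searched among 132 contigs.

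The defensin contig05824 had 205 bud reads against 341 wt reads. Its share was 10.6 per 10000 (9.20 to 12.2) in bud and 21.7 (19.4 to 24.1) in wt, a ratio of 0.489 (0.409 to 0.583), or 2.05-fold lower in bud (1.72 to 2.45). It was thus well represented in both flower types, and its difference was far smaller than that of the osmotin-like precursor contigs. The neighbours of contig05824 had at most 31 reads over both libraries, and 9 of 10 had at least 10, with ratios from 0.135 to 12.2. The extreme values rested on few reads: contig05827 had 2 bud reads against 12 wt reads, and contig05822 had 15 in bud against 1 in wt. Nearest to the defensin in ratio were a polyubiquitin-like contig (contig01698, 255 bud reads against 429 wt reads) and chalcone synthase (contig03801, 87 bud reads against 150 wt reads), the first enzyme of flavonoid synthesis. For the osmotin-like precursor contig00322 they were a 60S ribosomal protein L4 (contig00440, 1 bud read against 45 wt reads) and a low temperature induced-like protein (contig03588, 1 bud read against 86 wt reads), with wide counting intervals at 1 read.

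When only ratios whose whole counting interval lay past 2-fold were counted, contig00324 had such a ratio higher in bud, and contig00322 and contig00325 higher in wt, beside 2.18% and 3.57% of contigs.

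**Figure D4:**
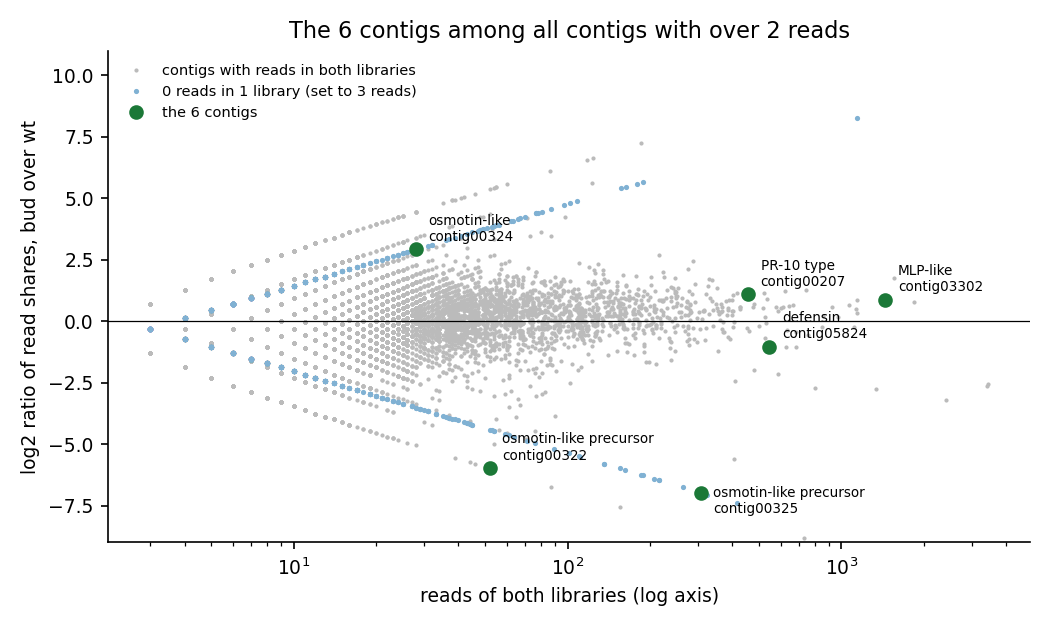
Log2 ratio of read shares, bud over wt, against the reads of both libraries on a log axis for all contigs with more than 2 reads (1 library each); contigs with 0 reads in 1 library are drawn with 3 reads there. The PR-10 type, MLP-like and defensin contigs lie at 1.09, 0.87 and -1.03 with 456, 1446 and 546 reads. The osmotin-like contig00324 lies at 2.92 among other contigs of like depth, and the precursor contig00322 and contig00325 at -5.97 and -6.97.

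A list of 18 contigs put the 6 beside others chosen by annotation as linked to defence or stress. Over the list, 6 contigs were at least 2-fold higher in bud and 10 at least 2-fold higher in wt, beside the 21.0% and 22.3% over all contigs, and the median log2 ratio was -1.56, against 0.02 over all contigs. Among the 195 annotated contigs of the study's list of differing contigs, 96 were at least 2-fold higher in bud and 81 at least 2-fold higher in wt, with a median of 0.93. The 12 contigs that are not members had a median of -2.14, with 4 of them at least 2-fold higher in bud and 7 in wt. All but contig02315 come from the study's own list of differing contigs, so these counts are no independent evidence of a direction.

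Among further contigs of the list, a chitinase-like protein 2 (contig03591) had 18 bud reads against 84 wt reads, a ratio of 0.174 (0.0985 to 0.292). Lipid transfer proteins, small secreted proteins counted as PR-14, had contig00090 with 281 bud reads against 2121 wt reads, and contig03191 with 133 in bud against 184 in wt, a ratio of 0.588 (0.466 to 0.738). Close to contig00090 in number, contig00091 (203 bud, 1130 wt), contig00092 (559 bud, 2846 wt) and contig00093 (587 bud, 2836 wt) had more wt reads. By contrast, contig00095 had 1143 bud reads against 0 wt reads. How reads were divided among these contigs was not tested. A dirigent-like protein (contig02313), of a family that guides the coupling of lignan precursors, had 1 bud read against 21 wt reads. The wt library had the larger share of the osmotin-like sum, the defensin, the chitinase-like contig, both listed lipid transfer contigs and the dirigent-like contig, and the bud library that of the PR-10 type and MLP-like contigs.

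The proteins linked to oxidative stress and signalling were divided. Glutathione S-transferases, which conjugate glutathione to toxic compounds, were higher in bud, with 68 bud reads against 5 wt reads for the tau class (contig03326, ratio 11.05, 4.51 to 35.1) and 120 bud reads against 32 wt reads for the phi class (contig04519, ratio 3.05, 2.05 to 4.65). A glutathione peroxidase (contig03201) had 13 bud reads against 48 wt reads, and a glutaredoxin-like protein (contig06023) had 8 in bud against 58 in wt. A cysteine proteinase inhibitor (contig11378) had 0 bud reads against 18 wt reads, and a wound-responsive family protein (contig00062) had 17 in bud against 59 in wt. The ethylene-responsive transcription factor RAP2-3 (contig04910) had 113 bud reads against 38 wt reads, a ratio of 2.42 (1.66 to 3.59). The disease resistance protein that the study used as a qRT PCR reference gene (contig02315) had 10 bud reads against 2 wt reads, and its interval of 0.866 to 38.1 included equal shares.

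**Figure D5:**
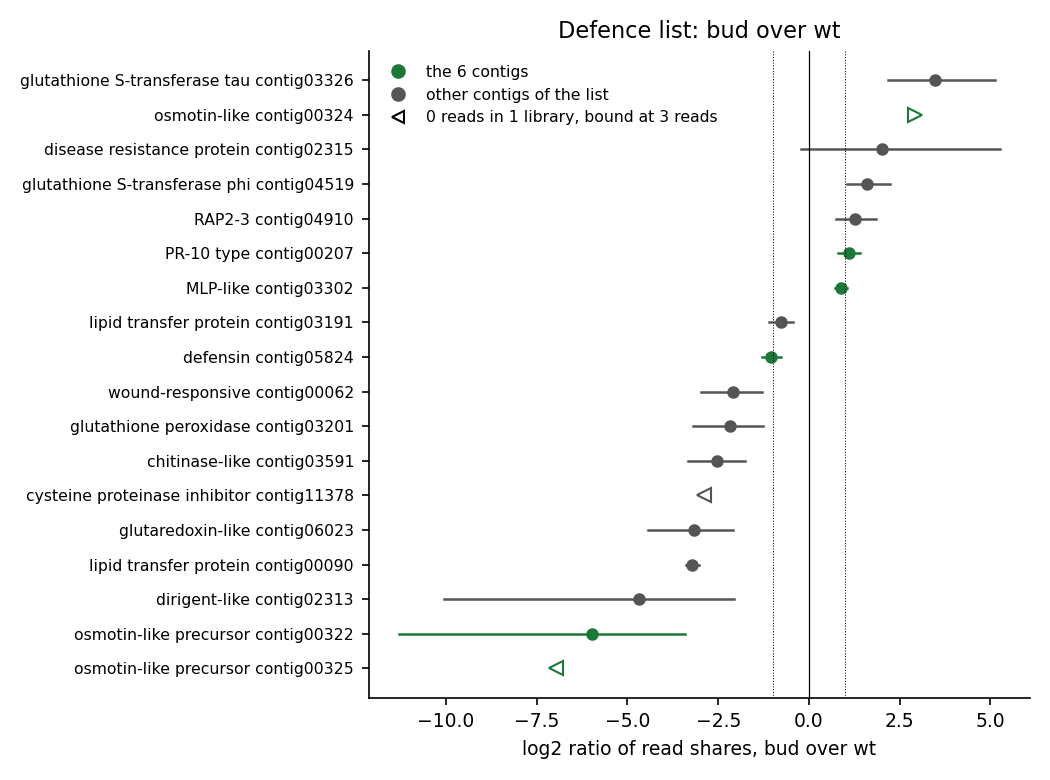
Log2 ratio of read shares, bud over wt, for the 18 contigs of the defence list, with exact 95% counting intervals as lines and dotted lines at 2-fold; 1 library per flower type. Triangles mark contigs with 0 reads in 1 library, placed at the bound from 3 reads. The osmotin-like precursor contigs lie at the lower end and contig00324 near the upper end, and the PR-10 type, MLP-like and defensin contigs lie close to the dotted lines.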

How the data were processed

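Total RNA from young flowers was turned into oligo(dT)-primed cDNA, amplified by PCR and pyrosequenced, with 1 tagged library per flower type. The authors used SeqClean against organelle, rRNA and endophyte sequences, built the common backbone from both libraries with Newbler, and counted each library's reads on it. These raw counts per contig are the deposited values used here. The 2 columns of normalised reads and the authors' unadjusted IDEG6 p-values in the table were not used.

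After removal of 3 repeated entries, library totals were the sums of the counts, 193454 for bud and 157245 for wt. Ratios have exact conditional binomial intervals and shares have Clopper-Pearson intervals, both at 95%. With 1 library per flower type no test with replicates could be fitted, and no adjusted p is given. The Audic-Claverie rule, by which the study listed the members, served as an alternative way of counting only, over the 11900 contigs with more than 2 reads; as it chose the members, their counts by it are not given. Intervals and test were tested on simulated data. The simulated counts held counting error only. PCR copies, reads counted on several contigs, variation of plants and the division of reads among contigs were therefore not covered. The 6 contigs, the defence list and all rules were chosen with earlier results of these data known. Named were the members, the defence list, floral marker contigs, neighbours within 5 numbers with at least 10 reads, and for each member with reads in both libraries the 2 annotated contigs nearest in ratio. Contigs numbered close to contig00090 and contig01586, and the E2FE-like contig, were named after the values had been seen. Not all neighbours are printed singly. Contig sequences were not analysed here. Alternatives were other library totals, read minimums, floors, calls and sums. Python 3.11.15, numpy 2.4.6, pandas 2.3.3, scipy 1.17.1, matplotlib 3.10.9, R 4.3.3, edgeR 4.0.16 (TMM library sizes) and DESeq2 1.42.0 (size factors) were used.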

Additional observations from a re-analysis of the deposited data

How the results depend on the processing

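The ratios of the 6 contigs kept their direction under all alternatives in which they were counted. contig00324 and contig00325 were left out where reads in both libraries were required. Read minimums could not change the ratio of a contig. Other library totals scaled all ratios alike, by factors from 0.787 to 0.984. With the study's reads in contigs of the separate assemblies as library totals, the ratio of contig00207 was 1.71, of contig03302 1.47 and of contig05824 0.392. With the reads of the 4 reference gene contigs as totals, which rest on 123 reads, they were 1.68, 1.44 and 0.385. The osmotin-like ratio of 0.0660 was 0.155 with contig00323 and 0.00228 with the precursor contigs only, which is also the value at a minimum of 30 reads, where contig00324 with its 28 reads is left out. The ratio of the 6 contigs' sum was 0.906 with assembled reads, 0.805 with reads in contigs and 0.789 with the reference genes as totals, alternatives chosen after seeing the data. Of the members at least 2-fold higher in bud, 1 was counted in place of 2 with assembled reads, with reads in contigs or with the reference genes as totals, at a minimum of 30 reads, when the whole interval had to lie past 2-fold, and over contigs with reads in both libraries, an alternative chosen after seeing the data. Of the defence list, 3 in place of 6 contigs were higher in bud when the whole interval had to lie past 2-fold. No paired analysis was possible because each flower type has 1 library. The read numbers set the other limit: at 1 read in bud, the counting interval of contig00322 spanned 0.000396 to 0.0929.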
